A study of Mus musculus with 24 samples.

Results

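The probes described here measure mouse microRNAs (miRNAs) numbered miR-680 to miR-721 and miR-1186 to miR-1199, which entered the miRNA registry largely from small RNAs cloned from mouse material. They were taken by name from both signal tables, leaving out star forms and miR-712, miR-714 and miR-715, and came to 52 of the 655 probes on the array. Of these, 39 belong to the lower run of numbers and 13 to the run from miR-1186 to miR-1199.

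The mice were male C57Bl6 animals of 6 to 8 weeks whose left carotid had 3 of its 4 caudal branches tied, an operation called partial ligation that makes flow in this artery low and oscillatory. RNA was flushed from the intima, the layer facing the blood, and hybridised to Illumina bead arrays. The groups were the left and the right carotid at 48 h and the left and the right carotid at 12 h after ligation, with 6 arrays each. The right carotid of operated animals was the comparison throughout, so every artery came from a mouse that had undergone surgery and none came from an unoperated or sham-operated mouse. The labels do not say whether numbered samples came from single animals, from pools or from the paired arteries of one animal, so p-values measure only how far these samples differ, and part of that may be technical.

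A miRNA is a short RNA that guides Argonaute proteins to messenger RNAs, mainly through its seed, the bases near its 5′ end that pair with the target. Many of the entries in these number ranges have been seen only in mouse, and some were later recognised as pieces of transfer RNA, ribosomal RNA or repeats. A bead array reports how much labelled RNA binds a probe, so it cannot tell a processed miRNA from another RNA with the same sequence. In bulk RNA, a lower signal from fewer cells of a type and from less RNA per cell also cannot be told apart.

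The mature sequences of the members on which the results turn, as given in the deposited tables in DNA letters, are printed 5′ to 3′ with the seed (bases 2 to 8) in capitals. The first set holds the members with the smallest p-values between arteries or between the times, apart from miR-1194, whose sequence is not shown. miR-699 and miR-708 are followed by better known miRNAs on the array with the same seed.
miR-699: aGGCAGTGcgacctggctcg
miR-34a: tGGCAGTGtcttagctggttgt
miR-692: aTCTCTTTgagcgcctcactc
miR-697: aACATCCTggtcctgtggaga
miR-691: aTTCCTGAagagaggcagaaaa
miR-703: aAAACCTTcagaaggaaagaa
miR-1186: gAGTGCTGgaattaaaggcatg
miR-683: cCTGCTGTaagctgtgtcctc
miR-682: cTGCAGTCacagtgaagtctg
miR-706: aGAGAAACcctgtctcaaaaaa
miR-693-5p: cAGCCACAtccgaaagttttc
miR-708: aAGGAGCTtacaatctagctggg
miR-28: aAGGAGCTcacagtctattgag

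The second set holds members with high normalized signal in all groups, a pair whose sequences overlap on opposite strands (miR-709 and miR-1196), a pair made of short simple repeats (miR-1187 and miR-1192), and miR-684, which was detected at 1 time only. The members outside the rule for naming (miR-709, miR-1196, miR-1187, miR-1192 and miR-684) were chosen after their values had been seen.
miR-690: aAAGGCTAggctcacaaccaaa
miR-720: aTCTCGCTggggcctcca
miR-1195: tGAGTTCGaggccagcctgctca
miR-709: gGAGGCAGaggcaggagga
miR-1196: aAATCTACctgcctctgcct
miR-1187: tATGTGTGtgtgtatgtgtgtaa
miR-1192: aAACAAACaaacagaccaaatt
miR-684: aGTTTTCCcttcaagtcaa

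The 52 members were not a sequence family: their 52 seeds were all distinct. Only 6 members shared a seed with another probe of the array. miR-699 shared its seed with 6 probes of the miR-34 and miR-449 group, a group known as targets of p53 and regulators of multiciliated cells. miR-708 shared its seed with miR-28. miR-721 shared its seed with miR-130a, miR-130b, miR-301a and miR-301b, and miR-1187 with 4 members of the miR-466 group. miR-1192 had the seed of miR-495, and miR-1193 that of 1 solexa probe, named for a sequencing read.

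An identical mature sequence was found in RefSeq (GRCm38.p6) for 40 of the 52 members, of which 37 matched 1 locus and 3 matched several. The annotation used holds gene spans but not exons or strand, so exonic and intronic positions were not told apart. Of the matched members, 31 lay within the span of another gene. miR-697 lay at chr4:124731768-124731788 on the plus strand within Sf3a3, which encodes a splicing factor subunit. miR-691 lay at chr16:74342005-74342026 on the minus strand within Robo2, an axon guidance receptor gene. miR-706 lay at chr6:120034290-120034311 on the minus strand within the span of Wnk1, a kinase gene. Both arms of miR-693 lay within Xpo5, the gene for exportin 5, which carries miRNA precursors out of the nucleus, with the 5p arm at chr17:46231551-46231571. miR-708 lay at chr7:96249450-96249472 within Tenm4.

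Of the members named for their p-values, 2 had several loci. miR-692 matched 3 loci, of which chr4:125504805-125504825 and chr13:74407121-74407141 lay within the ferritin light chain pseudogenes Ftl2-ps and Ftl1-ps1, and chr17:6895259-6895279 within no annotated gene. miR-683 matched chr13:50544644-50544664 and chr13:50600990-50601010, both outside annotated genes. miR-682 matched 1 locus, at chr13:75645119-75645139 within the pseudogene Gm4149. Signal on these probes cannot be assigned to 1 of several identical loci.

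Some member sequences recurred at many other places. For each probe's mature sequence, runs of 12 bases were searched on both strands in 27025 promoter windows of 300 bases (RefSeq, GRCm38.p6). At least 50 promoters held such a run for 8 of 52 members (15.4%), against 30 of all 655 probes (4.58%). The 8 were miR-1192 in 184 promoters, miR-1187 in 181, miR-709 in 133, miR-706 in 95, miR-1196 in 87, miR-705 in 83, miR-690 in 79 and miR-1195 in 76. Of these, 6 were detected on every array, and how many of the 30 probes were was not counted. Over all probes, 33.6% were detected on every array. The median count was 16 promoters for members detected on every array and 15 for members detected on none. A match is a shared run of letters and shows no origin of the signal.

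miR-709 and miR-1196 shared the run AGGCAGAGGCAGG of 13 bases on opposite strands, and the 2 arms of miR-693 shared 10 bases on opposite strands. miR-1187 shared a run of at least 10 bases with 19 other probes of the array. Mature sequences of members were 18 to 23 bases long, and their probes 16 to 23 bases. Median GC content was 51.2% in the members and 45.5% in the 603 other probes. Members detected on every array and members detected on none both had a median of 45.5%.

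A probe was counted as detected on an array where its deposited detection p-value was under 0.05. Across the 24 arrays, 335 to 431 of all probes were detected. Both arms of miR-126, the defining miRNA of endothelium, were detected on all 24 arrays, as were miR-143 and miR-145 of smooth muscle. Summed signal of the 2 endothelial probes ran from 7010 to 22800 in left arteries at 48 h, 3490 to 28700 in right arteries at 48 h, 43600 to 45300 in left arteries at 12 h and 44800 to 45500 in right arteries at 12 h. In the same 4 groups the 2 smooth muscle probes summed to 27600 to 36300, 31300 to 40500, 19900 to 29200 and 27400 to 30800. The 3 erythroid probes summed to 22400 to 37500, 25600 to 43200, 4720 to 4950 and 1550 to 7000. Of the erythroid probes, miR-144 was detected on no array. The 4 striated muscle probes summed to 1320 to 5720, 1260 to 23900, 3410 to 7220 and 4330 to 7400. The 4 leukocyte probes summed to 16600 to 18300 in left and 13500 to 19900 in right arteries at 12 h. The part of these cell types in the members' differences was not tested.

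On every one of the 24 arrays, 17 members (32.7%) were detected, against 220 of all probes (33.6%). No array detected 5 members (9.62%), namely miR-687, miR-689, miR-695, miR-698 and miR-717, against 70 of all probes (10.7%). At 48 h, 25% of the members were detected on no array, against 18.3% of all probes. The other 30 members (57.7%) were detected on some of the 24 arrays, against 55.7% of all probes. Of the members, 9 (17.3%) were detected on 1 to 3 arrays only, against 13.9% of all probes. miR-711, which lies within Col7a1, was detected on 1 array.

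**Figure D1:**
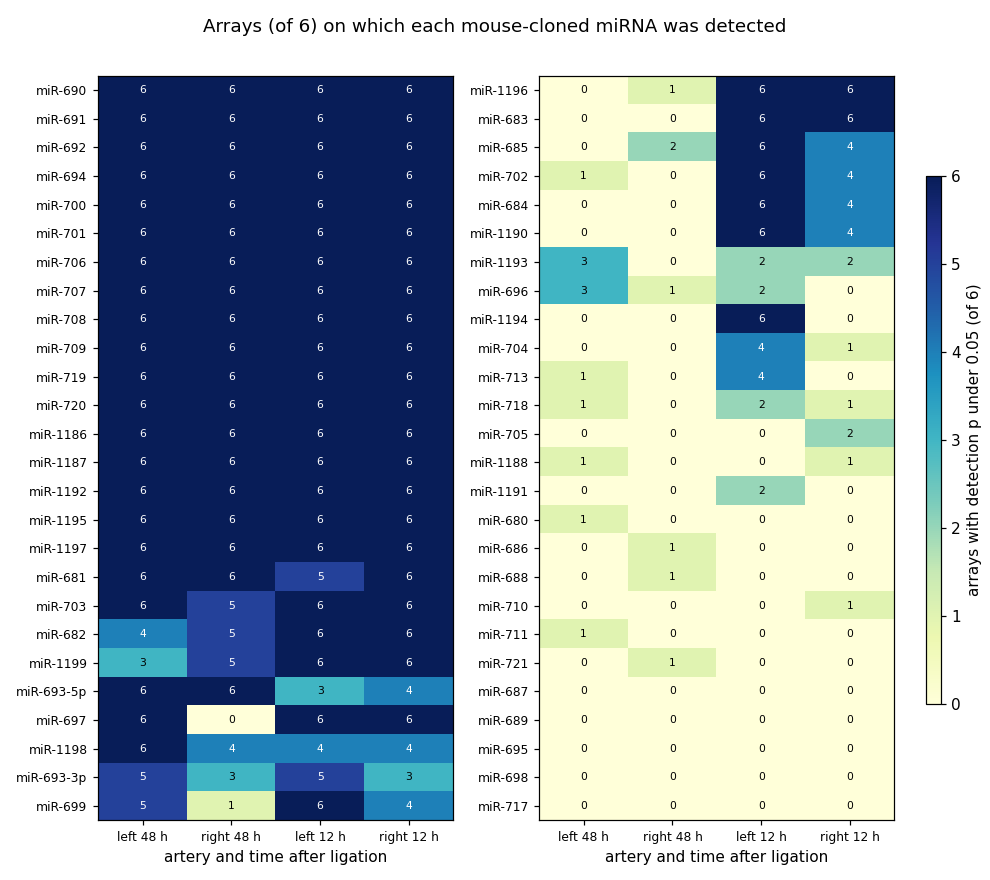
Number of arrays, of 6 per group, on which each of the 52 members had a detection p-value under 0.05, with groups in columns and members in rows ordered by their total. The 17 members of the upper left block were detected on all 24 arrays, and the 5 members at the lower right on none; miR-697 shows 6 left and 0 right arrays at 48 h, and miR-1194 shows 6 left and 0 right arrays at 12 h.

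Detection of the members was lower at 48 h than at 12 h in both arteries. Between 26 and 28 members (50% to 53.8%) were detected per left array at 48 h and between 33 and 37 (63.5% to 71.2%) per left array at 12 h, so that the 2 times did not overlap. The same arrays detected 55% to 61.7% of all probes at 48 h and 60.6% to 65.8% at 12 h, which overlapped. Right arrays detected 21 to 27 members (40.4% to 51.9%) at 48 h and 25 to 32 (48.1% to 61.5%) at 12 h, beside 51.1% to 62.6% of all probes at 48 h and 55.6% to 61.1% at 12 h. The members' share was below that of all probes on all 12 arrays at 48 h and on 1 of 12 at 12 h. The times stand in separate deposited tables, so time and table cannot be told apart, and this difference was not tested.

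A group of 6 members was detected on at least 10 arrays at 12 h and at most 3 arrays at 48 h, which is 11.5% of the members and 4.89% of all probes. The 6 were miR-683, miR-684, miR-685, miR-702, miR-1190 and miR-1196. No member showed the opposite pattern, which 16 of all probes (2.44%) did. The pattern was defined after the values had been seen, and the share is given as a description.

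Between arteries, more members were detected on more left than right arrays than the other way round. At 48 h this was 13 members against 7, beside 126 probes against 116 on the whole array. At 12 h it was 12 members against 5, beside 118 probes against 74. miR-697 at 48 h was the only probe of the 655 found on 6 left and 0 right arrays, and miR-1194 at 12 h was 1 of 4 such probes. miR-712, which the naming rule leaves out, was detected on 6 left and 4 right arrays at each time.

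Background correction and quantile normalization were done separately for the 48 h and the 12 h arrays. Values are given as normalized log2 signal, on which those near 5 are the low end. Of the members, 28 were detected widely enough to be tested at 48 h (53.8%; all probes 62.1%) and 35 at 12 h (67.3%; all probes 65.6%). Both times tested 26 members (50%; all probes 55.4%), and neither time tested 15 (28.8%; all probes 27.6%). Changes are left minus right with their standard error, and adjusted p-values are from limma, corrected by Benjamini-Hochberg over every probe that was tested. Signal levels of different probes are not comparable with each other.

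At 48 h no member passed the threshold of 0.05 in the left against the right carotid (0 of 28), while 12 of 407 probes tested passed it (2.95%). The change of the 28 members ran from -1.75 to 4.24 with a median of 0.07, beside a median of -0.00 over all probes tested. At an unadjusted p under 0.05, 7 members (25%) were counted, 5 higher and 2 lower in left arteries, against 72 of all probes (17.7%; 10.1% higher and 7.62% lower). The samples of the 2 arteries did not overlap for 2 members (7.14%), 1 higher and 1 lower, against 4.67% of all probes (3.19% higher and 1.47% lower). A change above 0 was found for 18 members (64.3%), against 49.9% of all probes. They include miR-696, miR-697, miR-699 and miR-1193, which were tested through the left arrays alone, so their sign partly followed from that filter. Of these, miR-697, miR-699 and miR-1193 were also among the 5 counted as higher. No member was tested through the right arrays alone. Summed signal of the 4 leukocyte probes at 48 h was 19300 to 28500 in left and 3390 to 18300 in right samples. Of these probes, miR-223 had a change of 1.95 (limma adjusted p = 0.107), miR-150 one of 0.51 and miR-142-3p one of 0.15. The last, miR-142-5p, was not tested at 48 h. None passed the threshold, and the part of leukocytes in the members' changes was not tested.

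miR-699 had the smallest p-value at 48 h. Left samples ran from 6.05 through a median of 11.74 to 12.44, and right samples from 5.35 through 5.88 to 10.06. Detected on 5 left arrays and 1 right array, it was high in all left samples but number 3 and low in all right samples but number 5, so the ranges overlapped. Its change was 4.24 ± 1.14 (SE, n = 6 each; 95% interval 1.76 to 6.72), with a limma adjusted p of 0.0797. Without left sample 3 the change was 5.17 (limma adjusted p = 0.0153), and without right sample 5 it was 4.95 (limma adjusted p = 0.0271). Over all fits that left out 1 sample, the change ran from 3.91 to 5.17 and the limma adjusted p from 0.0153 to 0.152. At 48 h miR-699 met the detection filter through the left arrays alone, so these p-values are no separate support for a difference.

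miR-697 separated the arteries by detection. Left samples lay at 6.57, 7.11 and 10.43 (lowest, median and highest) and right samples at 5.59, 5.96 and 6.25. Every left value stood above every right value after normalization, and left sample 6 stood far above the other left samples. Before normalization the arteries overlapped, with a lowest deposited signal of 136 in left and a highest of 157 in right arteries. The change was 1.67 ± 0.57 (SE, n = 6 each; limma adjusted p = 0.137). Because no right array detected it, the left level was at least 1.84-fold higher, the lowest signal detected on the right arrays standing in for its level there. Without left sample 6 the change was 1.12, with a limma adjusted p of 0.0440, and the bound 1.24-fold. Over all fits that left out 1 sample, the change ran from 1.12 to 1.87 and the adjusted p from 0.0440 to 0.201. At 48 h miR-697 was tested through the left arrays alone, so these p-values are no separate support for a difference.

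miR-692, whose sequence lies in ferritin light chain pseudogenes, was the other member without overlap. Left samples lay at 6.37, 7.69 and 7.75 and right samples at 7.97, 8.42 and 9.05 (lowest, median and highest). All left values were below all right values after normalization, with a change of -1.02 ± 0.33 (SE, n = 6 each; limma adjusted p = 0.117). Before normalization, its deposited signal had a median of 262.5 in left arteries and 256 in right arteries, so the separation was seen only on the normalized scale.

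miR-691 had lower values in left arteries, at 7.32, 8.40 and 8.71, than in right arteries, at 8.54, 9.28 and 9.41 (lowest, median and highest). The 2 ranges overlapped, with a change of -0.87 ± 0.32 (SE, n = 6 each; limma adjusted p = 0.158). Before normalization its median signal was 402.5 in left arteries and 338.5 in right arteries, so it was the lower in left arteries only on the normalized scale. miR-703 lay at 7.41, 8.18 and 8.54 in left arteries and at 6.39, 7.32 and 8.02 in right arteries. Its ranges also overlapped, and its change was 0.82 ± 0.31 (SE, n = 6 each; limma adjusted p = 0.159).

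Only 2 further members had an unadjusted p under 0.05 at 48 h, both outside the rule for naming. miR-1193 was detected on 3 left and 0 right arrays, with left values at 5.22, 7.37 and 12.22 and right values at 5.19, 5.30 and 5.51. The left samples it was not detected in lay at the level of the right samples, so the ranges overlapped. It was at least 2.68-fold higher in left arteries, and at least 1.52-fold without left sample 6, with a limma adjusted p of 0.262 over all samples (n = 6 each). miR-1193 too was tested through the left arrays alone. miR-1198 was detected on 6 left and 4 right arrays and lay at 11.88, 12.68 and 13.20 in left arteries and at 5.01, 10.74 and 13.04 in right arteries. The right samples of miR-1198 spanned almost the whole scale, and its change was 3.07 ± 1.38 (SE, n = 6 each; limma adjusted p = 0.268).

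**Figure D2:**
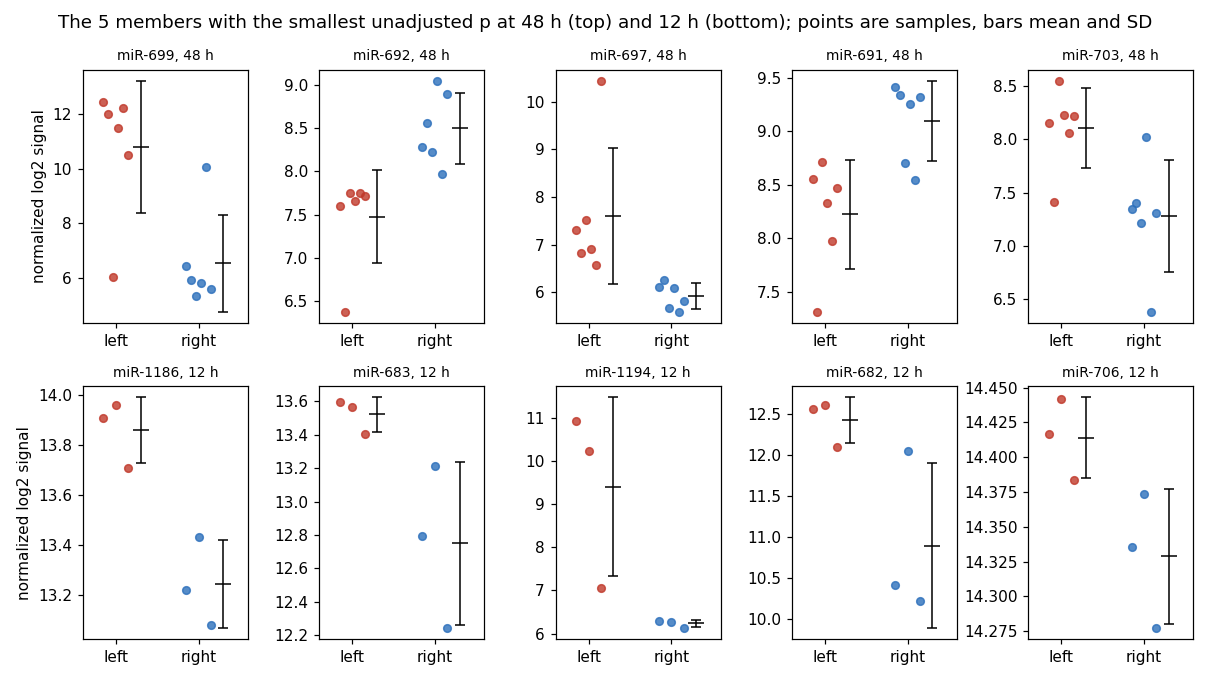
Normalized log2 signal in each sample for the 5 members with the smallest unadjusted p-value at 48 h (top, n = 6 per artery) and at 12 h (bottom, n = 3 per artery), left carotid beside right carotid, each panel with its own axis. Bars give the mean and SD; at 48 h the arteries are separate for miR-692 and miR-697, and at 12 h they are separate in all 5 panels.

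Narrow intervals at 48 h were found for miR-720, miR-1195 and miR-690, which were detected on all arrays. miR-720, which was later recognised as a fragment of a threonine transfer RNA, lay at 14.38, 14.56 and 14.63 in left arteries and at 14.06, 14.39 and 14.55 in right arteries. Its change was 0.17, with a 95% interval of -0.00 to 0.35. miR-1195 had a change of 0.02 (95% interval -0.17 to 0.21), and miR-690 one of -0.08 (95% interval -0.33 to 0.17). On this normalized log2 scale the intervals leave room for changes of no more than 0.35. They do not cover the choice of scaling: under scaling to the 75th percentile miR-1195 had a change of -0.23, outside its interval.

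miR-708, one of the few members with a human counterpart of the same number, lay at 13.37, 14.39 and 14.47 in left arteries and at 14.06, 14.49 and 14.60 in right arteries. Its change at 48 h was -0.17 (95% interval -0.57 to 0.23). miR-706 and miR-1186 varied far more among samples of 1 artery. miR-706 lay at 6.26, 12.16 and 12.38 in left arteries and at 8.54, 13.30 and 14.47 in right arteries, and its interval ran from -4.24 to 1.05. miR-1186 lay at 7.62, 9.91 and 12.21 in left arteries and at 9.24, 11.88 and 13.60 in right arteries, with an interval from -3.75 to 0.25.

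At 12 h the arrays numbered 4 to 6 of each artery were taken as repeats of samples 1 to 3 from rank correlations of at least 0.986, since the labels name no repeats, and each such pair was averaged to give 3 samples per artery. No member passed the threshold (0 of 35), while 2 of 430 probes did (0.465%). Changes ran from -1.94 to 3.17 with a median of 0.14, beside -0.05 over all probes tested. At an unadjusted p under 0.05, 5 members (14.3%) were counted, all higher in left arteries, against 41 of all probes (9.53%; 5.58% higher and 3.95% lower). The samples did not overlap for 9 members (25.7%), 6 higher and 3 lower, against 19.1% of all probes (6.05% higher and 13% lower). Changes above 0 made up 22 of 35 (62.9%), against 44.4% of all probes. They include miR-704, miR-713 and miR-1194, which were tested through the left arrays alone, so their sign partly followed from that filter.

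miR-1194 was detected on all 6 left arrays and on no right array at 12 h, so it was tested through the left arrays alone. Its left samples had 10.92, 10.23 and 7.05 and its right samples 6.30, 6.28 and 6.13. All left values were above all right values, but left sample 3 stood close to the right samples. The left level was at least 3.15-fold higher, with a fitted change of 3.17 ± 1.05 (SE, n = 3 each; limma adjusted p = 0.373). Without left sample 3 the change was 4.32, with a limma adjusted p of 0.0390, and without left sample 1 the level was at least 1.86-fold higher. Over all fits that left out 1 sample, the change ran from 2.42 to 4.32 and the adjusted p from 0.0390 to 0.578.

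miR-1186 had the smallest p-value at 12 h, with left samples at 13.91, 13.96 and 13.71 and right samples at 13.22, 13.43 and 13.08. The arteries did not overlap, and the change was 0.62 ± 0.11 (SE, n = 3 each; 95% interval 0.34 to 0.90; limma adjusted p = 0.201). The 6 values lay within about 1 unit, whereas the same probe spread over more than 4 units within each artery at 48 h.

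miR-683 had 13.59, 13.56 and 13.40 in left samples and 12.79, 13.21 and 12.24 in right samples, a change of 0.77 ± 0.25 (SE, n = 3 each; limma adjusted p = 0.373). miR-682 had 12.56, 12.61 and 12.10 in left samples and 10.42, 12.05 and 10.22 in right samples, a change of 1.53 ± 0.54 (SE, n = 3 each; limma adjusted p = 0.399). In both, the lowest left value was above the highest right value. miR-706 also had no overlap, with 14.42, 14.44 and 14.38 in left samples and 14.34, 14.37 and 14.28 in right samples, although its change was only 0.09 ± 0.03 (SE, n = 3 each; limma adjusted p = 0.422).

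The members with the smallest p-values at 48 h had these values at 12 h. miR-699 had 10.02, 11.44 and 10.94 in left samples and 9.68, 11.63 and 7.28 in right samples, a change of 1.27 (95% interval -1.52 to 4.06). miR-697 was detected on all 12 arrays at 12 h, with 7.56, 7.81 and 7.26 in left samples and 7.72, 8.37 and 8.45 in right samples, and its ranges overlapped. miR-703 had 13.68, 13.64 and 13.39 in left samples and 12.64, 13.30 and 11.41 in right samples, which did not overlap (change 1.12 ± 0.47, SE, n = 3 each; limma adjusted p = 0.495). With every 12 h array counted as a sample, its limma adjusted p was 0.0447.

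miR-692 had 9.05, 8.39 and 8.25 in left samples and 8.71, 9.03 and 9.45 in right samples at 12 h, and miR-691 had 10.10, 9.77 and 9.61 in left samples and 9.68, 10.06 and 10.45 in right samples. Both overlapped. The sign of the 12 h change of miR-691, miR-692, miR-697 and miR-708 turned under scaling to the 75th percentile. The most stable members gave narrow intervals at 12 h: 0.01 for miR-1195 (95% interval -0.08 to 0.10), 0.06 for miR-720 (-0.20 to 0.33) and -0.03 for miR-708 (-0.29 to 0.23). miR-690 had a change of 0.35, with an interval from -0.09 to 0.79.

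**Figure D3:**
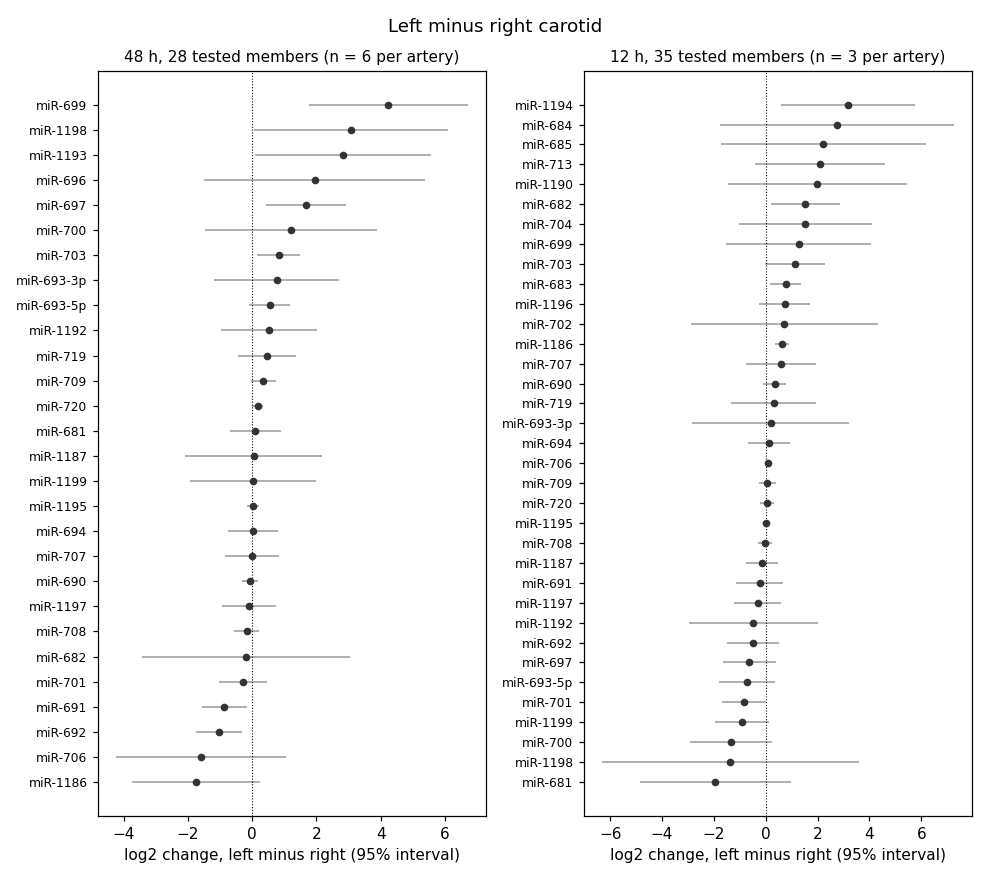
Change in normalized log2 signal, left minus right carotid, with its 95% interval from limma for the 28 members tested at 48 h (left panel) and the 35 tested at 12 h (right panel), ordered by size. The extremes are -1.75 and 4.24 at 48 h and -1.94 and 3.17 at 12 h, most intervals cross 0, and no member passed the adjusted threshold.

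Members with a human miRNA of the same number, a list drawn up from general knowledge, were miR-708, miR-711, miR-718, miR-1193, miR-1197 and miR-1199. Of the 4 tested at 48 h, 2 had a change above 0 and 2 below, and of the 3 tested at 12 h all had a change below 0. None passed the threshold at either time. miR-1188, miR-1193 and miR-1197 lie in the imprinted Dlk1-Dio3 region of chromosome 12, which holds one of the largest clusters of mammalian miRNAs. miR-1197 was detected on all arrays and had a change of -0.10 at 48 h (95% interval -0.94 to 0.73) and of -0.31 at 12 h (95% interval -1.23 to 0.60). miR-1188 was detected on 2 of 24 arrays.

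The left-right change was compared between 48 h and 12 h in 1 model, in which a shift of a deposited table common to both arteries cancels. A detection limit that differs between the tables does not cancel. No array at 48 h detected miR-683, miR-684, miR-704, miR-1190 or miR-1194, so for these time and table cannot be told apart. No member passed the threshold (0 of 37), while 1 of 474 probes did (0.211%). At an unadjusted p under 0.05, 4 members (10.8%) were counted, against 49 of all probes (10.3%). The median difference of the members was 0.01, beside 0.07 over all probes.

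miR-1194 was detected in left arteries at 12 h and on no array of the other 3 groups, so no size of its difference is given (limma adjusted p = 0.176). miR-697 had changes of 1.67 at 48 h, a fitted value since no right array detected it there, and -0.64 at 12 h. The fitted difference was 2.31 ± 0.87 (SE; limma adjusted p = 0.333). miR-693-5p had changes of 0.54 at 48 h and -0.71 at 12 h, a difference of 1.25 ± 0.48 (SE; limma adjusted p = 0.333). For miR-697 and miR-693-5p the left artery was the higher at 48 h and the lower at 12 h, whereas under 75th percentile scaling the 12 h change was 0.11 for miR-697 and -0.01 for miR-693-5p.

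The samples of miR-693-5p at 48 h lay at 7.23, 7.58 and 8.20 in left arteries and at 6.47, 7.07 and 7.70 in right arteries (lowest, median and highest), which overlapped. At 12 h they were 7.07, 7.46 and 7.25 in left arteries and 7.47, 8.08 and 8.37 in right arteries, which just failed to overlap. The highest left value was 7.464 and the lowest right value 7.467, while its arrays taken as repeats differed by up to 1.15. The other arm, miR-693-3p, was detected on 16 arrays and had a change of 0.76 at 48 h (95% interval -1.19 to 2.71) and of 0.19 at 12 h (95% interval -2.83 to 3.20).

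For levels at 48 h against 12 h, all 24 arrays were normalized together and differences of group means are given with no test, since each time stands in its own table. A probe was considered where at least 3 arrays of either time detected it. Where only 1 time did, the direction followed from that filter, so the shares below partly repeat the lower detection at 48 h. In left arteries the mean was lower at 48 h by over 1 on the log2 scale for 14 of 37 members (37.8%), against 28.2% of all probes considered, and higher by over 1 for 10 members (27%), against 33.6%. The 10 were 4 with scaling to the 75th percentile and 6 with quantile normalization without background correction. In right arteries it was lower by over 1 for 13 of 32 members (40.6%), against 22.3% of all probes, and higher by over 1 for 1 member (3.12%), against 24%. The median difference of the members was -0.30 in left and -0.43 in right arteries, beside 0.21 and 0.13 over all probes. With scaling to the 75th percentile the medians were -0.85 and -0.98 for the members and -0.27 and -0.16 for all probes, so the sign over all probes turned. Samples of the 2 times did not overlap in left arteries for 11 members lower at 48 h (29.7%; all probes 21.4%) and 7 higher (18.9%; all probes 22.7%). In right arteries this held for 7 members lower at 48 h (21.9%; all probes 14.2%) and 1 higher (3.12%; all probes 13.5%).

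In left arteries the 5 largest of these differences belonged to miR-684, miR-683, miR-1196, miR-1190 and miR-685, which no left array detected at 48 h. In right arteries the 2 largest belonged to miR-683, detected on no array at 48 h, and miR-1196, detected on 1. miR-683 averaged 6.22 ± 0.24 at 48 h (SD, n = 6) and 13.49 ± 0.09 at 12 h (SD, n = 3) in left arteries, which is at least 71.1-fold lower at 48 h. In right arteries it averaged 6.40 ± 0.48 at 48 h and 12.76 ± 0.47 at 12 h, at least 39.1-fold lower. All 12 h samples of miR-683 were above 12, and all 48 h samples below 7.

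miR-684 was at least 46.7-fold lower at 48 h in left arteries and at least 5.77-fold lower in right arteries. Its left samples at 12 h had 12.95, 13.02 and 12.69 and its right samples 11.82, 12.76 and 5.42 on the joint scale, and every 48 h sample lay between 5.40 and 5.50. Right sample 3 at 12 h was thus as low as the 48 h samples, so the right groups overlapped, and without it the bound was 28.2-fold. miR-1190 was at least 31.4-fold lower at 48 h in left and at least 6.42-fold lower in right arteries, where the groups overlapped too and the bound without right 12 h sample 3 was 22.6-fold. miR-685 was at least 15.9-fold lower at 48 h in left arteries. In right arteries miR-685 was detected on 2 arrays at 48 h, with 9.59 and 12.05, and the groups overlapped.

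miR-703 was detected at both times and averaged 8.68 ± 0.30 at 48 h (SD, n = 6) and 13.54 ± 0.15 at 12 h (SD, n = 3) in left arteries. In right arteries it averaged 8.00 ± 0.45 at 48 h and 12.44 ± 0.97 at 12 h. Neither pair of groups overlapped. miR-720 ran the other way, at 14.43 ± 0.08 at 48 h and 13.07 ± 0.11 at 12 h in left arteries and at 14.30 ± 0.12 at 48 h and 13.00 ± 0.09 at 12 h in right arteries. It was the 1 member higher at 48 h by over 1 in right arteries, and its samples did not overlap in either artery.

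**Figure D4:**
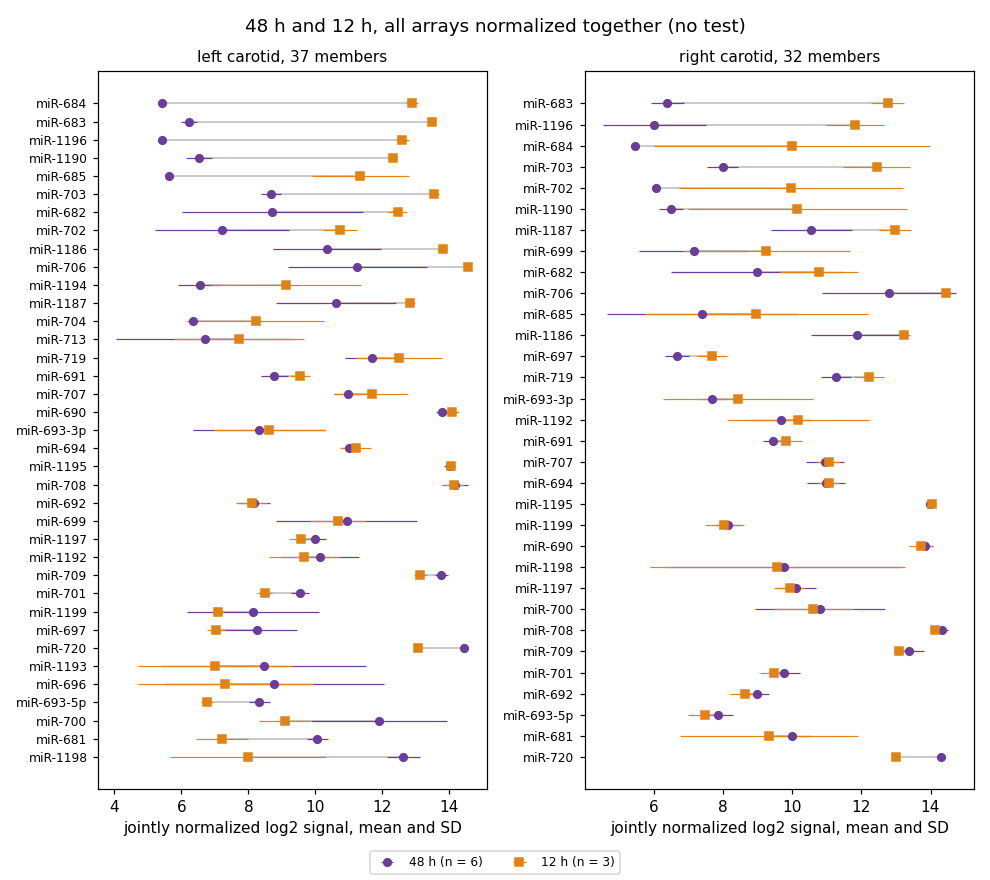
Mean and SD of jointly normalized log2 signal at 48 h (circles, n = 6) and 12 h (squares, n = 3) in the left carotid (37 members) and the right carotid (32 members), ordered by the difference. miR-683, miR-684 and miR-1196 lie far lower at 48 h, at 5.41 to 6.22 in left arteries, and miR-720 lies higher at 48 h in both arteries.

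The complementary pair miR-709 and miR-1196 differed in their values over time. miR-1196 averaged 5.41 ± 0.08 at 48 h (SD, n = 6) and 12.60 ± 0.20 at 12 h (SD, n = 3) in left arteries, where it was detected on 0 arrays at 48 h and 6 at 12 h. miR-709, known in mouse to act in the nucleus on a primary miRNA transcript, averaged 13.76 ± 0.20 at 48 h and 13.14 ± 0.18 at 12 h in left arteries. miR-1198 averaged 12.63 ± 0.49 at 48 h and 7.99 ± 2.33 at 12 h in left arteries, and 9.75 ± 3.39 at 48 h and 9.58 ± 3.69 at 12 h in right arteries.

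Some members varied strongly among samples of 1 group, as did some probes over the whole array. Between samples of right arteries at 12 h, 9 of 35 members (25.7%) spread over more than 3 units, beside 18.8% of all probes. The same was seen for 4 of 35 members (11.4%) in left arteries at 12 h, beside 16% of all probes. At 48 h it was seen for 12 of 28 (42.9%) in left arteries, beside 35.6% of all probes, and for 8 of 28 (28.6%) in right arteries, beside 41%. The members' share was thus above that of all probes in 2 of the 4 groups and below it in the other 2. Their median range was 0.91 in right arteries at 12 h, beside 0.77 over all probes tested. In left arteries at 12 h it was lower, at 0.51 beside 0.80. At 48 h it was lower as well, at 1.38 beside 1.65 in left and 1.41 beside 2.22 in right arteries. Over 210 comparisons of the arrays taken as repeats at 12 h, the members' median absolute difference was 0.07 and the highest 1.26 on the log2 scale, with 3 comparisons over 1. These arrays were chosen for their likeness, so small differences between them follow from that choice.

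Right sample 3 at 12 h was the low one for several of these members. miR-684 had 11.82, 12.74 and 5.73 in right samples 1 to 3, miR-702 had 11.57, 12.11 and 6.70, miR-1190 had 11.74, 12.20 and 6.99, and miR-685 had 11.97, 9.66 and 5.93. Its 2 arrays detected 25 and 31 members, against 31 or 32 on the other right arrays at 12 h. Of all probes they detected 364 and 375, against 380 to 400 on those other arrays. It was also the lowest right sample for miR-1186, miR-683, miR-1194, miR-682 and miR-706, the members with the smallest p-values at 12 h. miR-1192 went the other way, with 9.24, 9.49 and 12.50, and miR-1198 had 12.29, 5.68 and 11.14. Right sample 3 was thus low in several members but not in all.

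**Figure D5:**
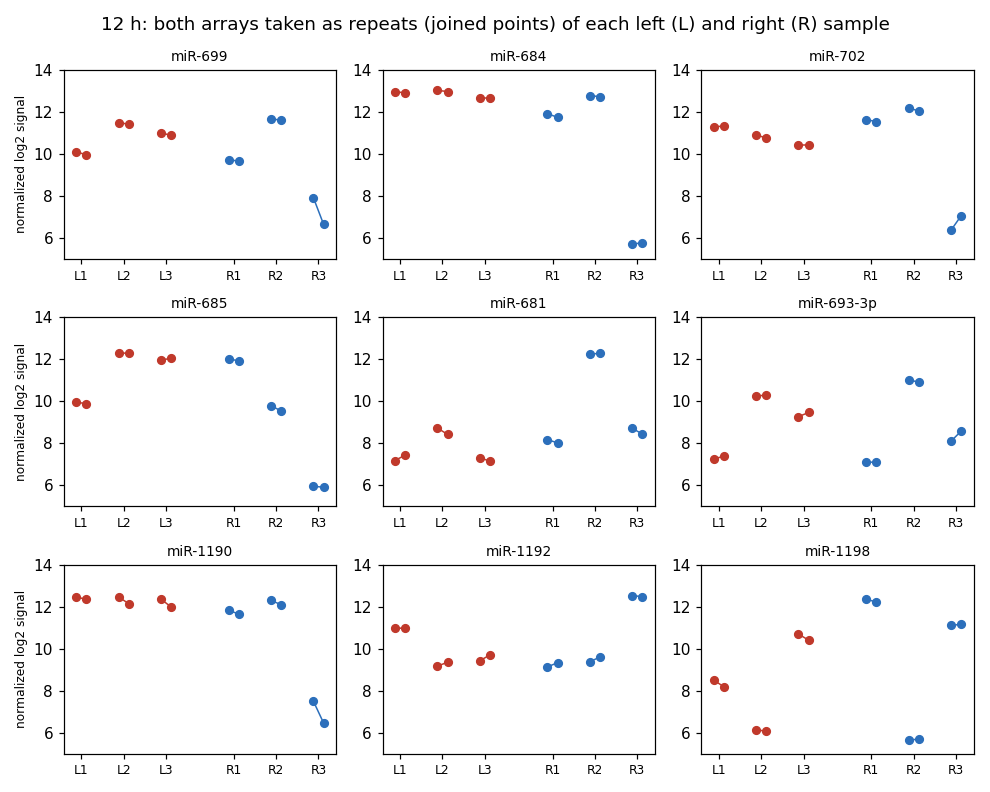
Normalized log2 signal at 12 h on both arrays taken as repeats (joined points) of left samples L1 to L3 and right samples R1 to R3, for the 9 members that spread over more than 3 units among right samples. Joined points lie within 1.26 of each other, which follows from pairing arrays by likeness; R3 is the lowest sample for miR-684, miR-685, miR-699, miR-702 and miR-1190 and the highest for miR-1192.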

How the data were processed

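Small RNA of 24 arrays was measured on Illumina bead arrays. For each of 2 times the authors deposited a table with the mean signal intensity of every probe on every array and its detection p-value, which GenomeStudio 2010.2 made per the submitters' processing notes, beside processed intensity values on a linear scale. Any earlier background subtraction is not stated in these sources. Table columns carry no time, and each table was tied to its time through the processed values (rank correlation at least 0.99998 with the sample's own column, at most 0.841 with another sample's).

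Signals were corrected and quantile-normalized within each time with neqc (offset 16; limma 3.58.1, R 4.3.3) and taken as log2. Probes with a detection p under 0.05 on at least 3 arrays of a compared group were tested with lmFit and eBayes with an intensity trend. Arrays of a group with rank correlation above 0.98 were averaged, giving n = 3 per artery at 12 h and n = 6 at 48 h. A lower bound on a fold replaces the level of an undetected group by the lowest detected signal of each array. The model was tested on simulated data. At the threshold it recovered 25%, 60% and 85% of simulated log2 changes of 1, 2 and 4 at 12 h. At 48 h these shares were 15%, 75% and 90%, so changes near 1 would mostly be missed. The number of arrays limits the precision.

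Members and lists were chosen with earlier results of these data known. By the naming rule, values are given for members with the smallest p-values (5 per time, 3 in the difference between times), for the 4 of highest signal at each time, and for those detected on all arrays of 1 artery and none of the other. Deviations of same-numbered arteries had correlations of 0.0245 to 0.0599 at 12 h and -0.1746 to 0.0242 at 48 h. With so few samples these cannot settle whether arteries were paired. The labels name no pairs, and arteries were not paired in the main fits. Alternatives covered background, scaling, filter, repeat arrays, trend, processed values and single samples.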

Additional observations from a re-analysis of the deposited data

Results flagged for a closer look

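Of 26 groups of 6 samples examined at 48 h, 7 held a sample set apart from the rest by a gap test at the 95% level, which chance gives in about 1 of 20 groups. miR-697 had 10.43 in left sample 6, against 7.52 in the next left sample. miR-699 had 6.05 in left sample 3, against 10.49 in the next, and 10.06 in right sample 5, against 6.42 in the next. miR-706 had 6.26 in left sample 2, against 11.45 in the next, and 8.54 in right sample 4, against 12.86 in the next. miR-708 had 13.37 in left sample 2, against 14.35 in the next, and miR-692 had 6.37 in left sample 2, against 7.60 in the next. Left sample 2 was the low sample for 3 of these members, and its array detected 404 of all probes and 26 members, against 26 to 28 members on all left arrays at 48 h.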

How the results depend on the processing

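No member passed the threshold between arteries or in the difference between times under another background, scaling, detection filter or trend setting, with the authors' processed values, or with the right 48 h samples 1 and 4 set aside (chosen after seeing the data). With every array counted as a sample, 9 members passed at 12 h, with 72 of all probes, and 2 in the difference between times, with 17 of all probes; arrays taken as repeats then count as separate samples. That setting gives nothing at 48 h, where no array was taken as a repeat. Leaving out 1 sample gave 0 to 1 members past the threshold at 48 h, 0 to 1 at 12 h and 0 to 2 in the difference between times (2 without left 12 h sample 3), beside 1 to 15, 1 to 6 and 1 to 7 probes of the whole array. Without left 12 h sample 3, miR-1194 had a limma adjusted p of 0.00132 for the difference. It was detected in left arteries at 12 h only and was tested through that group, so this p-value is no separate support.

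Scaling to the 75th percentile shifted the median 12 h change of all probes from -0.05 to 0.07, and that of 48 h against 12 h from 0.21 to -0.27 in left and from 0.13 to -0.16 in right arteries. Under it, members higher by over 1 at 48 h in left arteries numbered 4 in place of 10, and 6 under quantile normalization without background correction; in right arteries leaving out a sample gave 1 to 2. The members with a change above 0 at 12 h were then 26 of 35. Signs turned there at 12 h for miR-691 (0.054), miR-692 (0.12), miR-697 (0.11) and miR-708 (0.030), at 48 h for miR-1195 (-0.23), and in the difference between times for miR-1195 (-0.31). With right samples 1 and 4 set aside, miR-690 at 48 h had 0.0069. Leaving out 1 sample turned the sign of changes near 0: miR-1195 ranged from -0.018 to 0.070 at 48 h, from -0.017 to 0.032 at 12 h and from -0.029 to 0.059 in the difference; miR-708 from -0.24 to 0.0062, from -0.13 to 0.065 and from -0.23 to 0.036; miR-720 from -0.0089 to 0.12 at 12 h; miR-682 from -0.93 to 0.52 at 48 h; and miR-703 from -0.74 to 0.21 in the difference. The cause was not tested.

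With the replicate number as a block, 0 members passed in each comparison, and whole-array calls went to 0 at 12 h, 0 at 48 h and 1 in the difference. At 12 h each left sample correlated best with the right sample of its own number, a hint from the data and not from the design, and at 48 h none did.

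Signals near background limit the members detected on few arrays.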
